A study of Mus musculus with 6 samples.

Results

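Bone morphogenetic protein (BMP) ligands and the secreted proteins that bind or modulate them were examined in RNA-seq of primary mouse osteoblasts, as 10 listed genes out of 55471 in the deposited count table. The ligands were Bmp2, Bmp3, Bmp4, Bmp5 and Bmp6. The antagonists and other extracellular modulators were Grem1, Nog, Chrdl1, Smoc1 and Smoc2. Each gene matched 1 row, and all 10 had enough counts to be tested.

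BMPs are secreted dimers that bring together type I and type II serine/threonine kinase receptors, which then phosphorylate SMAD1, SMAD5 and SMAD9. Extracellular antagonists bind the ligands and keep them from these receptors, so the supply of both sets how much signal a cell receives. The pathway is best known for its capacity to induce cartilage and bone, and it also patterns the skull and limbs.

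The cells were isolated from the calvaria, or skull cap, of 3-day-old C57BL/6 mice and were harvested after 3 days of culture. TCKO cells came from mice homozygous for floxed Tet1 (Tet1 fl/fl), floxed Tet2 (Tet2 fl/fl) and floxed Tet3 (Tet3 fl/fl) and carrying Prx1-Cre, in which a Cre recombinase driven by the Prx1 promoter in limb and skull mesenchyme deletes parts of all 3 genes that encode TET enzymes, the oxidases of 5-methylcytosine. WT cells are labelled wild type, and the sources used here do not say whether these mice carried floxed alleles, or how many animals each culture held. There were 3 libraries per genotype, and no treatment is given for either group. Because nothing states that the libraries came from separate cultures, the p-values measure the spread between these libraries, which may be partly technical.

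Libraries held between 8019999 and 10177214 counts. Replicates 1 and 2 of each genotype were close to each other, with a mean chi-square per gene of 1.81 in WT and 2.28 in TCKO, where sampling noise alone gives about 1 (genes with at least 100 counts in the pair), while pairs with replicate 3 gave between 20.1 and 28.8. Mitochondrial genes took 2.22% and 2.47% of counts in replicate 3 of WT and TCKO, against 1.11% to 1.24% elsewhere. TCKO replicate 3 had 4583 counts of the female-specific Xist and 0 of the Y-linked Ddx3y, while the other 5 libraries had at most 4 of Xist and at least 675 of Ddx3y. Of the targeted genes, Tet1 had 98, 131 and 115 counts in the WT libraries against 68, 51 and 51 in the TCKO libraries, while Tet2 had between 121 and 213 in all libraries and Tet3 was higher in each library labelled TCKO (622 to 795) than in any labelled WT (452 to 611). The counts cover whole genes and do not separate deleted exons, so the directions below rest on the labels of the libraries. As a check of the cell type, Col1a1 had between 101033 and 223459 counts and Runx2 between 555 and 962, while the late osteoblast genes Bglap, Bglap2 and Dmp1 had at most 5 counts in any library.

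The level of the antagonist Grem1 was 15.2-fold higher in TCKO than in WT, and that of the ligand Bmp4 was 4.04-fold lower. Bmp5 and Smoc1 were also lower, by 2.87-fold and 5.62-fold. A gene was called when its Benjamini-Hochberg adjusted p in the edgeR quasi-likelihood test across 13826 genes was under 0.05 and its fold change over 2. By this rule 1 member was called higher (Grem1) and 3 were called lower (Bmp4, Bmp5 and Smoc1), where 3.16% of all tested genes were called higher and 3.19% lower. At an adjusted p under 0.05 with no limit on fold, 2 members were higher (Grem1 and Smoc2) and 3 lower, against 9.07% and 8.63% of all tested genes. Levels in CPM (counts relative to a library of 1000000, scaled between libraries with TMM factors) did not overlap between genotypes for 3 members that were higher in TCKO (Bmp6, Grem1 and Smoc2) and 4 that were lower (Bmp4, Bmp5, Nog and Smoc1). Among all tested genes such a separation was seen for 19.4% in the higher and 18.9% in the lower direction.

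**Figure D1:**
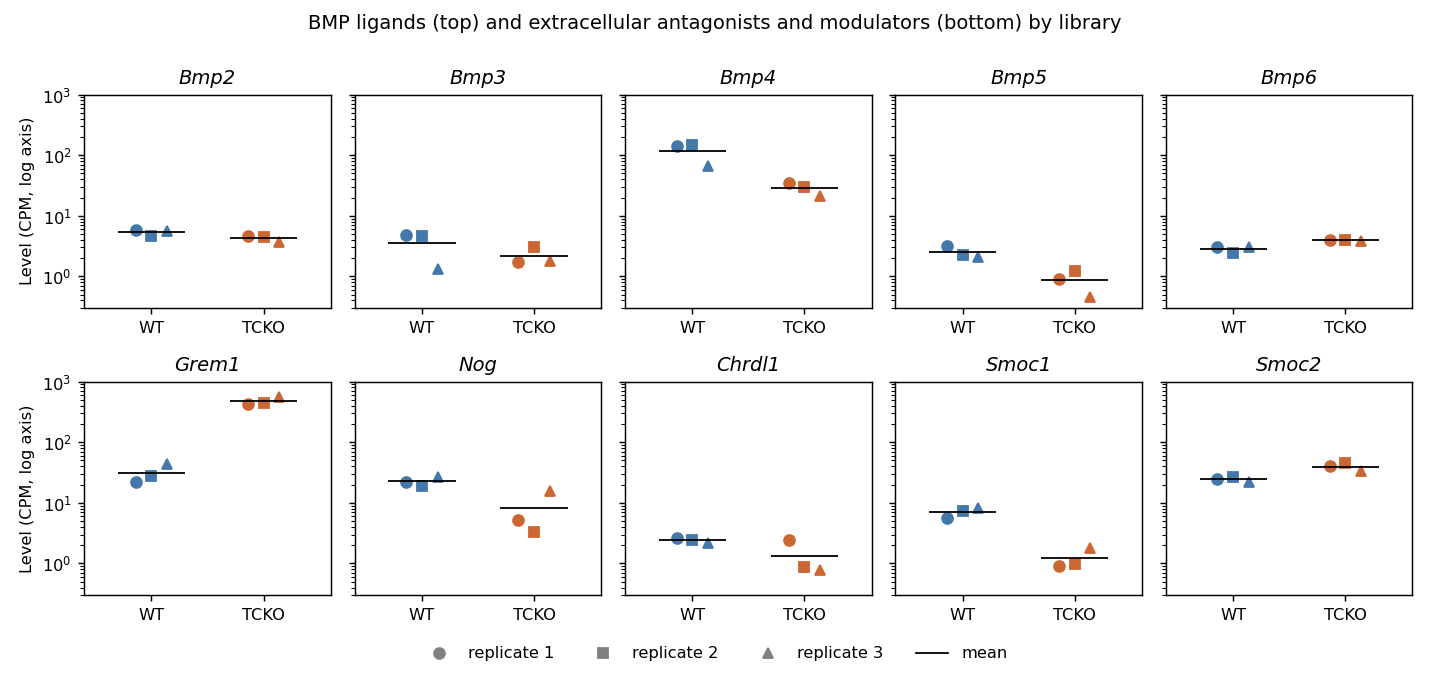
Level of each member in CPM on a log axis in the 3 WT and 3 TCKO libraries, with ligands in the upper row and antagonists and modulators in the lower row; symbols mark replicates and bars mark means. Grem1 lies between 22.0 and 43.8 CPM in WT and between 434 and 560 CPM in TCKO, and Bmp4 moves the other way.

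RefSeq start sites (GRCm38.p6) were matched for 4 of the 10 members, Grem1, Bmp4, Bmp5 and Bmp6. TET enzymes act on methylated cytosine, which in most mammalian cells lies in CG dinucleotides, so the windows of the 3 called members among them are shown with CG in capitals. Each runs 5′ to 3′ on the strand of the gene, from 250 bases before the start site through the first 50 bases of the transcript: chr2:113758599-113758898 (minus strand) for Grem1, chr14:46390620-46390919 (minus strand) for Bmp4 and chr9:75775115-75775414 (plus strand) for Bmp5.
Grem1: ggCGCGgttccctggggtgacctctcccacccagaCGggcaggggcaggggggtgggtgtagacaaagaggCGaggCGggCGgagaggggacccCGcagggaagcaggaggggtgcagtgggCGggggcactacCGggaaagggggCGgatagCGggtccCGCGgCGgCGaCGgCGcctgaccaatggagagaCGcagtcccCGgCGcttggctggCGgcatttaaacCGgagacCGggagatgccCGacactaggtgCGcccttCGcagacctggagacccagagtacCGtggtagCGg
Bmp4: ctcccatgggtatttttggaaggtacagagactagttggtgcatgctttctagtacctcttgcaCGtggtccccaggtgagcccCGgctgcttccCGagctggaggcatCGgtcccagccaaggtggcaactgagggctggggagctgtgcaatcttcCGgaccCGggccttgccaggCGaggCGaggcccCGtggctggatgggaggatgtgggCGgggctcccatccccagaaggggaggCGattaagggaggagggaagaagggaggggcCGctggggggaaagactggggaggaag
Bmp5: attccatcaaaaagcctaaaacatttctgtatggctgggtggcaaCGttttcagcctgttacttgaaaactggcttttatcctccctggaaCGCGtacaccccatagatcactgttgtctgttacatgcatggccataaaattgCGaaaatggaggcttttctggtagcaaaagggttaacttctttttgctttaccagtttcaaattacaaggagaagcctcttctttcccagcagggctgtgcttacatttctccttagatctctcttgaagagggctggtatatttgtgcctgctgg

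The Grem1 window held 28 CG dinucleotides, the Bmp4 window 12 and the Bmp5 window 4, with 27 in the Bmp6 window that is not shown. The RefSeq start of Bmp6 (38345716) lies inside the gene as deposited, which starts at 38345107. The Bmp6 window therefore does not cover the start of the gene as counted. Of 32851 promoter windows of this length in the reference table, 14.2% held at least as many CG as Grem1, 39.6% as many as Bmp4 and 68.6% as many as Bmp5, with a median of 7. The called members with a window therefore ranged from CG-rich to CG-poor at their starts, and no window was matched for the called member Smoc1. RUNX2 is the master transcription factor of osteoblasts, and its core motif was searched for as TGTGGT and TGCGGT on both strands. None of the 4 windows held a match, and 22.4% of all windows did, which says only that these letters are absent from these windows. Methylation of these sequences was not analysed here.

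Among the ligands, Bmp4 carried most of the RNA and had the largest fitted change. Bmp4 (ENSMUSG00000021835, chromosome 14, 46383520 to 46390669, GRCm38) encodes a ligand that induces osteoblast commitment. It had 1154, 1451 and 551 counts in the WT libraries (here and below in the order of replicates 1, 2 and 3) against 310, 243 and 192 in the TCKO libraries. WT replicate 3 stood well below the other WT libraries, but still above every TCKO library. The means were 117 ± 43.6 CPM for WT against 29.0 ± 7.0 CPM for TCKO (SD, n = 3), a log2 fold change (log2FC) of -2.01 ± 0.31 (SE; 95% confidence interval -2.73 to -1.30; edgeR adjusted p = 0.00448). With the counts of the close replicates 1 and 2 summed, so that 2 samples were set against 2, the log2FC was -1.94 and the call was lost (edgeR adjusted p = 0.0776). Bmp4 shares 89 exon bases with Gm15217 on the opposite strand, which had at most 5 counts.

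Bmp5 (ENSMUSG00000032179, chromosome 9, 75775364 to 75900310) encodes the ligand mutated in short ear mice, which have skeletal defects. It was sparsely detected, with 26, 23 and 17 counts in the WT libraries against 8, 10 and 4 in the TCKO libraries. Every TCKO library lay below every WT library. The mean level was 2.50 ± 0.57 CPM for WT against 0.868 ± 0.399 CPM for TCKO, a log2FC of -1.52 ± 0.39 (edgeR adjusted p = 0.0331). This call was lost when any of 4 libraries was left out, with adjusted p-values (edgeR) of 0.122 and 0.0909 on omission of WT replicates 1 and 2, and of 0.0973 and 0.0545 on omission of TCKO replicates 1 and 3, and it was 0.188 with replicates 1 and 2 summed. An antisense gene, Gm26903, covers 1878 of its exon bases and had 0 counts in every library.

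The other ligands did not pass the test. Bmp2 (ENSMUSG00000027358, chromosome 2, 133552159 to 133562885), the ligand long used to induce bone, had 48, 46 and 46 counts in the WT libraries against 41, 36 and 33 in the TCKO libraries. Its groups overlapped in CPM, and the interval of the log2FC ran from -0.77 to 0.15 (edgeR adjusted p = 0.334). Bmp6 (ENSMUSG00000039004, chromosome 13, 38345107 to 38500302), also an osteogenic ligand, had 25, 24 and 25 counts in the WT libraries against 35, 32 and 34 in the TCKO libraries. Its libraries separated by genotype, yet the log2FC of 0.48 ± 0.21 gave an edgeR adjusted p of 0.161. Bmp6 shares 224 exon bases with Txndc5 on the opposite strand, which had between 3013 and 3548 counts, and since the use of strand in counting is not stated, reads from this overlap cannot be assigned with certainty.

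Bmp3 (ENSMUSG00000029335, chromosome 5, 98854415 to 98884396) encodes an atypical ligand that opposes the osteogenic BMPs. It had 40, 47 and 11 counts in the WT libraries against 15, 25 and 16 in the TCKO libraries. WT replicate 3 was the lowest of the 6 libraries, so the direction differed between replicates, with a log2 ratio of CPM of -0.98 over replicates 1 and 2 and 0.43 within replicate 3. The fitted log2FC was -0.73 ± 0.49 (edgeR adjusted p = 0.348). Without WT replicate 3 it was -1.12, with an edgeR adjusted p of 0.0426.

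**Figure D2:**
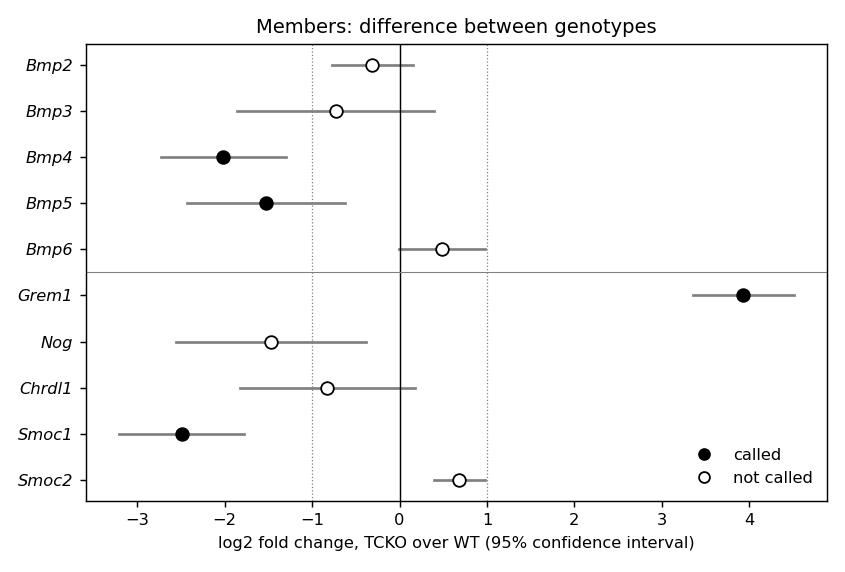
Fitted log2FC of each member, TCKO over WT, with its 95% confidence interval; filled points mark called members and dotted lines a 2-fold change. Grem1 at 3.93 stands alone on the right, Bmp4, Bmp5 and Smoc1 are called on the left, and the interval of Nog (-2.55 to -0.38) lies below 0 although it was not called.

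Among the antagonists, the changes ran in both directions. Grem1 (ENSMUSG00000074934, chromosome 2, 113746164 to 113758646) encodes gremlin, a cystine-knot protein that binds BMP2, BMP4 and BMP7. It had 182, 282 and 361 counts in the WT libraries against 3802, 3509 and 4996 in the TCKO libraries. The lowest TCKO library was far above the highest WT library, and replicate 3 was the highest in each genotype. The mean was 31.3 ± 11.2 CPM for WT against 477 ± 72.4 CPM for TCKO (SD, n = 3), a log2FC of 3.93 ± 0.25 (95% confidence interval 3.35 to 4.51; edgeR adjusted p = 0.000124). It stayed called in all 17 alternatives, with a log2FC between 3.73 and 4.24 and a highest adjusted p of 0.0133 with replicates 1 and 2 summed.

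Smoc1 (ENSMUSG00000021136, chromosome 12, 81026808 to 81186414) and Smoc2 (ENSMUSG00000023886, chromosome 17, 14279506 to 14404790) encode related secreted calcium-binding matrix proteins that modulate BMP signalling, and they moved in opposite directions. Smoc1 had 46, 73 and 68 counts in the WT libraries against 8, 8 and 16 in the TCKO libraries, and all TCKO libraries lay below the WT libraries. Its log2FC was -2.49 ± 0.31 (95% confidence interval -3.20 to -1.78; edgeR adjusted p = 0.00186), and it stayed called in all 16 alternatives in which it was tested. Smoc2 had 207, 263 and 183 counts in the WT libraries against 348, 361 and 302 in the TCKO libraries. Its mean rose from 24.5 ± 2.09 CPM to 39.5 ± 5.50 CPM, a log2FC of 0.69 ± 0.13 (edgeR adjusted p = 0.00900), which is 1.61-fold and therefore below the limit for a call. With replicates 1 and 2 summed its adjusted p was 0.114.

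Nog (ENSMUSG00000048616, chromosome 11, 89300638 to 89302332) encodes noggin, which covers the receptor-binding surfaces of BMP ligands. It had 185, 192 and 218 counts in the WT libraries against 46, 27 and 140 in the TCKO libraries. All TCKO libraries were below the WT libraries, but TCKO replicate 3 was much nearer to them than the other TCKO libraries were. The mean was 22.7 ± 3.64 CPM for WT against 8.10 ± 6.65 CPM for TCKO, and the log2FC of -1.47 ± 0.47 did not pass the test (edgeR adjusted p = 0.0679). With the replicate number as a block the gene was called (log2FC -1.62, edgeR adjusted p = 0.0121), as it was without TCKO replicate 3 (-2.38, edgeR adjusted p = 0.000603) and with DESeq2 (adjusted p = 0.00672). Summing replicates 1 and 2 gave an edgeR adjusted p of 0.32, and with the block added to the sums the call was also lost (log2FC -1.47, edgeR adjusted p = 0.0745).

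Chrdl1 (ENSMUSG00000031283, chromosome X, 143285674 to 143394262) encodes chordin-like 1, which binds BMPs through cysteine-rich domains. It had 22, 24 and 18 counts in the WT libraries against 21, 7 and 7 in the TCKO libraries. TCKO replicate 1 lay within the WT range, and the other TCKO libraries lay below it. Its log2FC was -0.82 ± 0.43 (edgeR adjusted p = 0.234), and without TCKO replicate 1 it was -1.53 with an edgeR adjusted p of 0.0412. The gene is X-linked, and TCKO replicate 3 had the sex-specific counts of a female sample. The part of sex in this value was not tested.

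To compare levels between genes, counts were divided by the deposited gene length and scaled to a common total (TPM). In WT the order was led by Bmp4 at 146 ± 56.3 TPM, then Nog at 37.2 ± 5.35, Grem1 at 20.9 ± 7.03, Smoc2 at 9.83 ± 1.01 and Smoc1 at 5.59 ± 0.98 TPM. Bmp2 followed at 4.17 ± 0.51 TPM and overlapped with Smoc1. The lowest were Bmp6, Bmp5, Bmp3 and Chrdl1, at mean levels between 0.996 and 2.01 TPM, and each of these overlapped with the next in order. In TCKO the first place was held by Grem1 at 314 ± 49.9 TPM, followed by Bmp4 at 35.3 ± 8.60, Smoc2 at 15.5 ± 1.96 and Nog at 13.1 ± 10.8 TPM, where the last of these overlapped with Smoc2. Bmp2 at 3.29 ± 0.39 and Bmp6 at 2.75 ± 0.07 TPM came next, and Smoc1, Bmp3, Bmp5 and Chrdl1 were all below 1 TPM on average, each overlapping with its neighbour.

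The summed level of the 5 ligands was 187, 190 and 89.1 TPM in WT replicates 1, 2 and 3 and 51.2, 44.0 and 32.9 TPM in TCKO. The summed level of the 5 antagonists and modulators was 68.2, 68.2 and 87.1 TPM in WT and 315, 305 and 412 TPM in TCKO. Bmp4 made up between 80.2% and 95.4% of the ligand sum in all libraries. Grem1 made up between 22.0% and 33.0% of the antagonist sum in WT and between 90.2% and 92.2% in TCKO, while the share of Nog lay between 46.5% and 54.8% in WT and between 1.74% and 6.18% in TCKO. The ratio of Grem1 to Bmp4 in TPM was 0.0855, 0.105 and 0.355 in WT and 6.65, 7.83 and 14.1 in TCKO. These sums are a description of RNA levels for a chosen set of genes and carry no test. In a bulk sample, fewer cells that express a gene and less RNA per cell cannot be told apart.

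**Figure D3:**
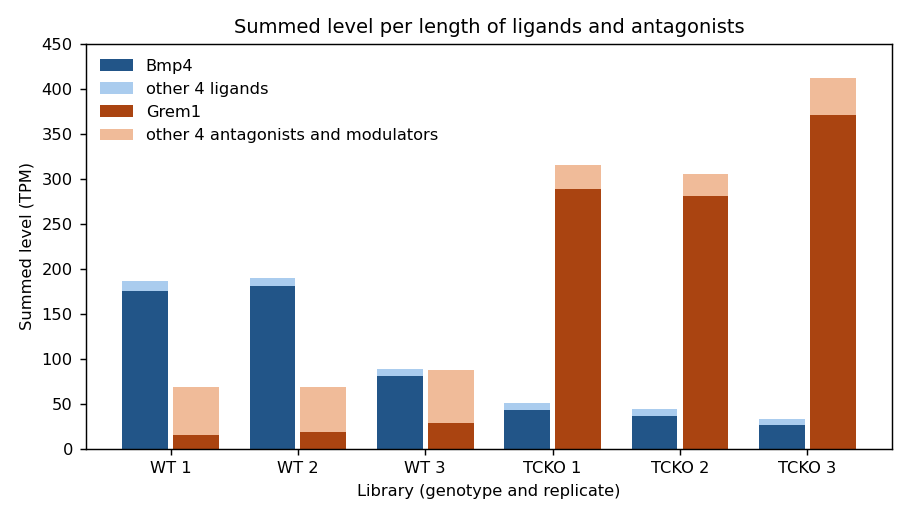
Summed TPM of the 5 ligands (left bar, Bmp4 dark) and of the 5 antagonists and modulators (right bar, Grem1 dark) in each library. Ligands exceed antagonists in WT replicates 1 and 2, the sums are close in WT replicate 3 (89.1 and 87.1 TPM), and antagonists exceed ligands in every TCKO library.

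Since replicate 3 stood apart in both genotypes, each member was also compared within replicates 1 and 2 and within replicate 3 as a log2 ratio of CPM, values with no test. The sign was shared for 9 of the 10 members, with Bmp3 as the exception. Grem1 gave 4.12 over replicates 1 and 2 and 3.68 within replicate 3, Bmp4 gave -2.12 and -1.63, and Smoc1 gave -2.75 and -2.20. The ratio within replicate 3 was nearer to 0 for Nog (-2.27 and -0.75) and further from 0 for Bmp5 (-1.34 and -2.20) and Chrdl1 (-0.63 and -1.47).

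**Figure D4:**
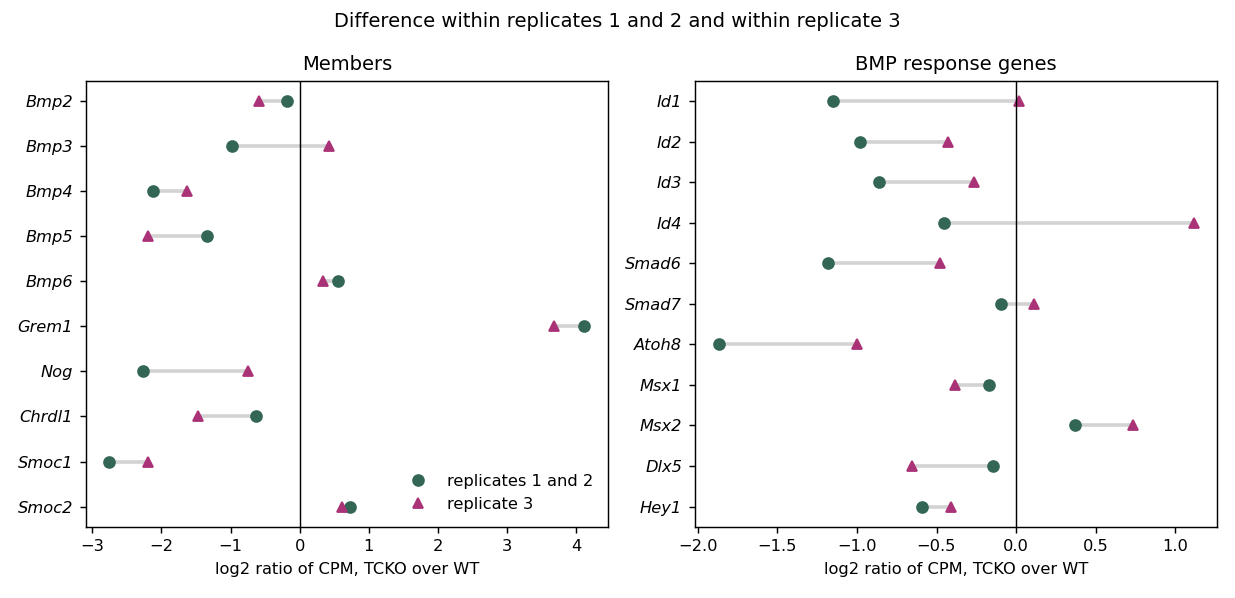
Log2 ratio of CPM, TCKO over WT, over replicates 1 and 2 (circles) and within replicate 3 (triangles), for the members on the left and 11 BMP response genes on the right. Members other than Bmp3 keep their sign, whereas Id1, Id4 and Smad7 lie below 0 over replicates 1 and 2 and above 0 within replicate 3.

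The rest of the pathway was read from lists of 60 other genes, of which 46 were tested. Of these 3 were called higher and 3 lower, where 3.16% and 3.19% of all tested genes were called, and the median log2FC was -0.22, against 0.00 over all tested genes. With replicates 1 and 2 summed only 2 of them were called (Bmpr1b and Eng), with adjusted p-values of the other 4 (edgeR) between 0.0576 and 0.0697. Without TCKO replicate 3 the count was 15. Over all genes these fits gave 324 and 939 calls, against 878 in the main fit.

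Of 13 other BMP and growth differentiation factor (GDF) ligands 6 were tested and 1 was called. Gdf6, a ligand required for joint and cranial suture formation, had 114, 110 and 75 counts in the WT libraries against 25, 20 and 38 in the TCKO libraries, with a log2FC of -1.81 ± 0.26 (edgeR adjusted p = 0.00318). Gdf10, which belongs with Bmp3 by sequence, had 80, 75 and 54 counts in the WT libraries against 9, 8 and 128 in the TCKO libraries, so that TCKO replicate 3 was the highest of all libraries and the others the lowest. It is named here after its values were seen, and it was not called (edgeR adjusted p = 0.719). Bmp7 also did not pass, with a log2FC of -0.45 ± 0.43 (edgeR adjusted p = 0.521). Bmp10 and Gdf3 had 0 counts in every library.

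Of 17 other extracellular antagonists and modulators 12 were tested, and 4 were higher and 3 lower at an adjusted p under 0.05, 1 of each past 2-fold. Sostdc1, a secreted antagonist of BMP and WNT signalling, had 29, 37 and 10 counts in the WT libraries against 1, 0 and 0 in the TCKO libraries (edgeR adjusted p = 0.00433). Kcp, a chordin-like protein described as an enhancer of BMP signalling, had 13, 6 and 8 counts in the WT libraries against 33, 27 and 44 in the TCKO libraries, with a log2FC of 1.96 ± 0.37 (edgeR adjusted p = 0.00990). Chrd, the founding member of the chordin family, had a log2FC of -0.54 ± 0.24 (edgeR adjusted p = 0.163). The genes Cer1 and Sost had 0 counts throughout.

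Of the 3 proteases of a list made for chordin cleavage, Bmp1 and Tll1 were tested, and Tll2 had at most 1 count in any library. Tll1 was called, with 62, 78 and 81 counts in the WT libraries against 175, 154 and 276 in the TCKO libraries. Its log2FC was 1.48 ± 0.22 (edgeR adjusted p = 0.00398). Among 12 receptors and co-receptors 11 were tested. Bmpr1b, a type I receptor of chondrogenic condensations, had 36, 42 and 52 counts in the WT libraries against 187, 140 and 224 in the TCKO libraries, a log2FC of 2.11 ± 0.21 (edgeR adjusted p = 0.000728). Eng, the co-receptor endoglin, had 1950, 2300 and 1983 counts in the WT libraries against 704, 602 and 929 in the TCKO libraries, a log2FC of -1.44 ± 0.12 (edgeR adjusted p = 0.000398). The main receptors Bmpr1a (-0.16 ± 0.13) and Bmpr2 (-0.13 ± 0.09) did not pass the test, and of the 4 SMADs that carry the signal 0 passed at an adjusted p under 0.05 in edgeR, with 0 also at an unadjusted p under 0.05 and 0 in DESeq2. Their log2FCs lay between -0.83 and 0.19.

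**Figure D5:**
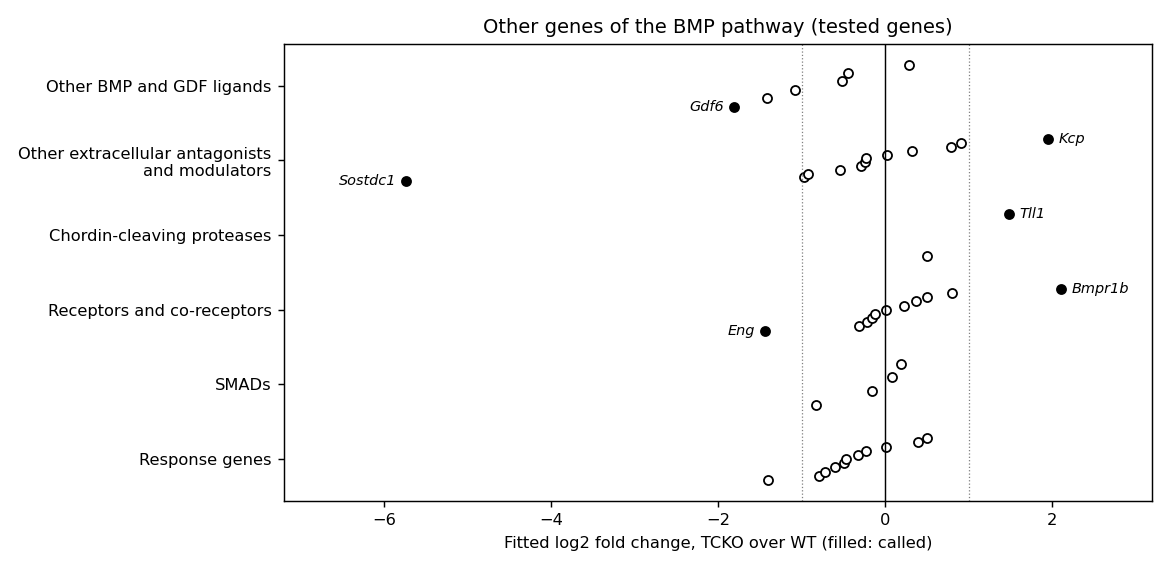
Fitted log2FC, TCKO over WT, of the 46 tested pathway genes by list; filled points with names were called and dotted lines mark a 2-fold change. Bmpr1b, Kcp and Tll1 are called on the right and Eng, Gdf6 and Sostdc1 on the left; the fitted value of Sostdc1 depends on the prior count, as TCKO held 1 count in all.

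The 11 response genes are transcribed in many cells when BMP signalling is active. None was called by edgeR or DESeq2, and the unadjusted p in edgeR was under 0.05 for 1 higher and 3 lower genes. At an adjusted p under 0.05 DESeq2 gave 1 higher and 2 lower genes, and edgeR gave 1. This was Msx2, a homeobox gene of the skull, which rose by 0.50 ± 0.10 on the log2 scale (edgeR adjusted p = 0.0135). Msx2 did not pass without WT replicate 2, or with replicates 1 and 2 summed, with or without the replicate block. Over replicates 1 and 2 the log2 ratio of CPM was below 0 for 10 of the 11 genes, and within replicate 3 for 7. Id1, an inhibitor of differentiation factors and a direct SMAD target, had 457, 519 and 817 counts in the WT libraries against 198, 207 and 893 in the TCKO libraries. TCKO replicate 3 was thus the highest library for Id1 and the other TCKO libraries the lowest, and the log2FC of -0.47 ± 0.55 did not pass (edgeR adjusted p = 0.607). Atoh8, another SMAD target, had 666, 758 and 1040 counts in the WT libraries against 192, 168 and 563 in the TCKO libraries. Its log2FC of -1.41 ± 0.42 had an edgeR adjusted p of 0.0569, and it was called with the replicate block. Without TCKO replicate 3, 4 response genes were called lower (Id1, Id2, Smad6 and Atoh8). Over all tested genes that fit called 478 lower, against 441 in the main fit. It left TCKO with only the close replicates 1 and 2, so the spread within TCKO was small. Whether the difference itself varied between the replicate sets was not tested.

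By a fixed measure of likeness, the root mean square difference of centred log2 CPM over the 6 libraries, the genes nearest to each called member were sought among 9262 tested genes with a mean of at least 100 counts. Nearest to Bmp4 were C1ra at 0.15 and Vnn1 at 0.16, and nearest to Bmp5 were Fcgrt at 0.14 and Slc24a3 at 0.16. Grem1 had Il18rap at 0.25 and Galnt18 at 0.30. For Smoc1 these were Lepr at 0.11 and Npnt at 0.21.

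The protein-coding gene on each side of every member was also read, a comparison chosen after the data had been seen. Of 20 such neighbours 11 were tested and 1 was called: Prkg2, which lies 45.4 kb from Bmp3, had 213, 262 and 243 counts in the WT libraries against 1090, 1011 and 801 in the TCKO libraries (log2FC 2.06 ± 0.14, edgeR adjusted p = 0.000148). Fmn1, whose gene body is known to hold limb enhancers of Grem1, had between 703 and 870 counts in all libraries, a log2FC of 0.02 ± 0.09 (edgeR adjusted p = 0.919). The neighbours of Bmp4, Ddhd1 and Cdkn3, did not pass either, at 0.27 ± 0.16 and 0.71 ± 0.47.

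Markers of other cells moved with genotype beside these results. All 10 chondrocyte markers were called lower in TCKO, and their summed level lay between 7300 and 8989 CPM in WT and between 899 and 1226 CPM in TCKO. Tendon and fibrous tissue markers summed to between 1527 and 2438 CPM in WT and between 726 and 749 CPM in TCKO, with 2 of 8 called lower. Macrophage and osteoclast markers lay between 401 and 713 CPM in WT and between 159 and 544 CPM in TCKO, with 2 of 8 called lower. For smooth muscle and pericyte markers the sums were 1867 to 2167 CPM and 2333 to 2844 CPM, with 1 of 5 called higher. Of 6 endothelial markers only Kdr was tested, and it was called higher, while Pecam1 and Cdh5 had at most 7 counts in any library. Of 6 skeletal muscle markers Acta1 was called higher, and Myod1 and Myog had at most 20 counts. Schwann cell and neuron markers summed to between 76.4 and 99.5 CPM in WT and between 75.9 and 85.3 CPM in TCKO, with S100b called lower, and of 5 adipocyte markers Adipoq and Plin1 had 0 counts. Of 11 osteoblast markers 7 were tested, and Spp1 was called higher and Alpl lower. At an edgeR adjusted p under 0.05 with no limit on fold, 1 was higher (Spp1) and 3 were lower (Alpl, Runx2 and Col1a1). The 11 markers summed to between 31950 and 33450 CPM in WT and between 17580 and 31680 CPM in TCKO. The part of these differences in the values of the members was not tested.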

How the data were processed

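RNA-seq was available for 3 WT and 3 TCKO libraries of primary osteoblasts, grouped by sample title. The authors aligned reads to GRCm38 (Ensembl annotation) with STAR 2.7.0e and, per the submitters' processing notes, used featureCounts 2.0.0. The deposited values are raw counts per gene, without normalization. The strand setting of the counting is not given in the sources used here. The deposited gene length, taken as it stands, was used for TPM. All sample columns were mapped (0 left over), and 0 rows had no gene name.

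Counts were filtered with filterByExpr, scaled with TMM factors and tested with the quasi-likelihood test of edgeR 4.0.16 in R 4.3.3, without covariates, with Benjamini-Hochberg adjustment over 13826 genes. The script was tested on simulated data. At this depth 3 counts, the limit that a count of 0 allows, equal between 0.299 and 0.373 CPM, which covers counting error only. The study's cutoffs (adjusted p under 0.05, fold over 2) were used. Its own recipe, DESeq2 (here 1.42.0) with an RPKM over 0.24, was an alternative, as were other scaling factors, filters, a robust fit, a replicate block, summed replicates and omitted libraries. Symbols were matched by gene identifier, overlaps were read from the deposited exon coordinates, and gene types come from GENCODE M21.

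The members and lists were chosen with earlier results of these data known. Text names every member, called genes of the pathway lists, the 2 most alike genes of each called member, and Tet1, Tet2 and Tet3; pathway and marker genes named beyond this were chosen after their values were seen. Deviations from the group means correlated between same-numbered libraries at 0.204, 0.214 and 0.347 across genes. The crossed pairs of replicates 1 and 2 gave 0.188 and 0.225, and pairs of replicate 3 with replicates 1 or 2 gave between -0.282 and -0.249. These values set replicate 3 apart from replicates 1 and 2 and do not pair replicates 1 and 2 by number. The main fit was unpaired, with the replicate block as an alternative.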

Additional observations from a re-analysis of the deposited data

How the results depend on the processing

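Grem1 was the 1 member called higher in every alternative. The 3 members called lower became 1 when only genes with a mean of at least 50 counts were tested, where 4 members remained in the test, and 1 with replicates 1 and 2 summed. Over all genes the 878 calls became 543 and 324 in these fits, which test fewer genes or hold fewer samples. With a library left out, between 2 and 4 members were called lower, and between 595 and 1049 genes in all. The replicate block gave 4 lower members and 1011 calls, and among the members it changed the call of Nog alone, while it added Atoh8, Bmp8a and Fst among the other pathway genes called. With the block on summed replicates, 2 members were called lower (Bmp4 and Smoc1). Of the calls that the block had added (Nog, Atoh8, Bmp8a and Fst), only that of Atoh8 held. With DESeq2 there were 894 calls and with the study's recipe 846, each with Nog as a 4th lower member. Scaling with RLE or upper-quartile factors left the members' calls as they were. No member changed the sign of its fitted log2 fold change. In replicates 1 and 2 only, 4 members were called lower, among 1290 calls over all genes. Bmp3 had an edgeR adjusted p of 0.00311 at -0.99 in this fit. Its p-values rest on the small spread between the close replicates 1 and 2, which may be partly technical. The same holds within a genotype whose replicate 3 was left out. Other pathway genes called numbered 11 with no filter and 14 in replicates 1 and 2 only, against 6. Calls over all genes also rose in these fits, to 1150 and 1290, against 878. The causes were not tested. Mean levels under 5 CPM in both genotypes, as for Bmp3, Bmp5, Bmp6 and Chrdl1, rest on at most 47 counts per library, so depth limits what can be seen for these genes.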
